A study of Homo sapiens with 6 samples.

Results

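DUSP1, DUSP4, DUSP5, DUSP6, SPRY2, SPRY4, SPRED1, SPRED2, ETV4 and ETV5 are genes that cells switch on when the ERK kinases are active, and most of their products then dampen the same pathway. They were picked by gene name, with earlier results of these data known, and all 10 are among the 14034 rows of the count table. The libraries come from JHH-4, an established human hepatocellular carcinoma line with epithelial-like morphology. In 3 libraries the cells overexpressed hsa-miR-885-5p from a plasmid carrying the primary microRNA, and 3 libraries came from control cells labelled wild type. All cells grew in the same serum-containing medium. The labels do not say how the control cells were treated, and effects of the plasmid and of the microRNA cannot be told apart. By the design text the 3 libraries of each group are technical replicates, which is the only spread that the p-values below take into account.

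Growth factor receptors act through RAS, RAF and MEK on the ERK kinases, which enter the nucleus and raise transcription of growth genes. The same signal induces its own brakes. The MAP kinase phosphatases of the DUSP family remove phosphate from ERK or its relatives JNK and p38, Sprouty proteins interrupt signalling between receptor and RAS, and SPRED proteins bring the RAS inhibitor neurofibromin to the membrane. ETV4 and ETV5 are ETS transcription factors of the PEA3 group that carry the signal to target genes. Because their transcripts follow ERK activity, several of these genes serve as its readout in tumours. The libraries measured messenger RNA only. In bulk RNA, fewer cells that express a gene and less of its RNA per cell cannot be told apart.

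No values of MIR885 or its host gene ATP2B2 were analysed here, which leaves the overexpression unchecked. Total counts ran from 46382314 to 56409821 with miR-885-5p and from 48327113 to 49694754 in control libraries. The groups parted along the first principal component (66.0% of variance), and control library 3 stood apart along the second (12%). The keratin genes KRT8, KRT18 and KRT19 were strongly expressed, while of 8 hepatocyte markers 7 (among them ALB, AFP and HNF4A) were not analysed here, and SERPINA1 had 8.41 ± 1.34 CPM with miR-885-5p and 8.86 ± 0.641 CPM in control cells. These keratins were the 3 tested epithelial markers of 5, and EPCAM and CDH1 were not analysed here. They summed to 2811 to 2907 CPM with miR-885-5p and 3342 to 3440 CPM in control libraries, with KRT8 and KRT19 lower. Of 5 stromal markers COL3A1, ACTA2 and DCN were not analysed here. COL1A1 and PDGFRB summed to 23.5 to 23.9 CPM with miR-885-5p and 12.7 to 15.2 CPM in control libraries. PDGFRB was higher and COL1A1 did not pass the test. Of 4 endothelial markers VWF and CDH5 were not analysed here. PECAM1 and KDR summed to 2.50 to 2.78 CPM with miR-885-5p and 1.42 to 2.08 CPM in control libraries. PECAM1 was higher and KDR did not pass the test. Of 4 leukocyte markers PTPRC and CD3E were not analysed here, and CD68 and CD14 summed to 125 to 128 CPM with miR-885-5p and 118 to 139 CPM in control libraries. CD68 made up most of that sum and did not pass the test. CD14 was lower but barely detected, at 0.786 ± 0.282 CPM with miR-885-5p and 1.41 ± 0.310 CPM in control cells, and its libraries overlapped. All 5 proliferation markers (MKI67, TOP2A, MCM2, CCNA2 and PCNA) were lower with miR-885-5p, against 26.5% of all genes lower at an adjusted p under 0.05. Their summed levels were 1075 to 1100 CPM with miR-885-5p and 1663 to 1675 CPM in control libraries. The part of these markers in the results below was not tested.

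The microRNA is shown first because its seed, in capitals, sets which 3′ UTRs it can pair with. Sequences are from RefSeq (GRCh38.p14, chr3:10394531-10394552, minus strand).
hsa-miR-885-5p: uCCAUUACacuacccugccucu
The longest annotated 3′ UTR of each of the 10 genes was searched, on the transcript strand, for 4 site types (GTAATGGA as 8mer, GTAATGG as 7mer-m8, TAATGGA as 7mer-A1, TAATGG as 6mer), each position counted once under its longest match. None of the 10 genes held an 8mer or 7mer-m8, against 8.01% of 12304 genes with a 3′ UTR. SPRY2 and SPRED1 each held 1 7mer-A1, and these windows of 28 bases (GENCODE 29 transcripts, match in capitals) are shown since they are the longest matches found.
SPRY2 chr13:80336565-80336571, minus strand: agaactcagcTAATGGAgctcaaagtat
SPRED1 chr15:38354772-38354778, plus strand: caatcaaactTAATGGAtgtactgaggc
Within its UTR the SPRY2 match begins at position 187 of 782, and the SPRED1 match at position 3108 of 5585. SPRED1 also held 2 6mers and SPRED2 held 1, while the UTRs of DUSP1, DUSP4, DUSP5, DUSP6, SPRY4, ETV4 and ETV5 held 0 matches of any type. Over all annotated 3′ UTRs the counts for the 10 genes were the same. In the longest 3′ UTRs, 2 of 10 genes held a 7mer or 8mer, against 17.2% of all genes, and 3 of 10 held a match of any type, against 30.4%.

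With miR-885-5p, 5 of the 10 genes rose (DUSP4, SPRY2, DUSP6, SPRED1 and DUSP5), SPRED2 fell slightly, and DUSP1, SPRY4, ETV4 and ETV5 did not pass the test. In the edgeR quasi-likelihood test 52.9% of all genes were called, 26.3% higher and 26.5% lower, so 6 called genes of 10 is near the background, and 5 of 10 higher lies above the share of higher calls among all genes. Since the 10 genes were chosen with earlier results of these data known, that excess is a description only. The median log2 fold change of the 10 genes was 0.20 and that of all genes tested was -0.00061, while the median absolute change was 0.24 for both. The libraries of the groups did not overlap for 6 of the 10 genes, all of them higher with miR-885-5p, against 60.5% of all genes in either direction (30.2% higher and 30.3% lower).

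Among the phosphatases, DUSP4 had the largest difference. DUSP4 (ENSG00000120875), a nuclear phosphatase that acts on ERK, JNK and p38, had 180.3, 184 and 180.3 CPM (counts scaled by library total after TMM scaling) in miR-885-5p libraries 1 to 3, against 99.4, 98.7 and 97.7 CPM in control libraries 1 to 3. The lowest miR-885-5p library lay far above the highest control library, and libraries of a group differed by little. DUSP4 averaged 181 ± 1.90 CPM with miR-885-5p and 98.6 ± 0.846 CPM in control cells (SD, n = 3 libraries each), which is 1.84-fold (log2 fold change 0.88, SE 0.03, edgeR adjusted p = 9.44e-08). Only 7.60% of all genes had an absolute change as large.

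DUSP6, a cytoplasmic phosphatase selective for ERK and the member most often used as a readout of ERK activity, had 57.2, 60.4 and 58.1 CPM with miR-885-5p, against 36.4, 34.3 and 37.5 CPM in control libraries. Every miR-885-5p library was above every control library. The means were 58.6 ± 1.64 and 36.1 ± 1.62 CPM in miR-885-5p and control cells (log2 fold change 0.70, SE 0.05, edgeR adjusted p = 4.61e-06). Of 4632 exonic bases of DUSP6, 40.5% also lie in exons of the antisense gene AC024909.2, which was not analysed here; without the strand setting, reads of the pair cannot be told apart.

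DUSP5, a nuclear phosphatase selective for ERK, had 151, 158 and 143 CPM with miR-885-5p, against 117, 116 and 131 CPM in control libraries. The groups did not overlap, and control library 3 came closest to the miR-885-5p libraries. Its log2 fold change of 0.31 (SE 0.06, edgeR adjusted p = 0.00116) was the smallest among the genes that rose, and it was not past a test against a 1.2-fold change (adjusted p = 0.241).

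DUSP1, a nuclear phosphatase with a preference for p38 and JNK that stress and glucocorticoids also induce, had 42.7, 40.8 and 43.4 CPM with miR-885-5p, against 39.5, 39.7 and 42.5 CPM in control libraries. These values overlapped. The log2 fold change was 0.06 (SE 0.05, edgeR adjusted p = 0.372).

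**Figure D1:**
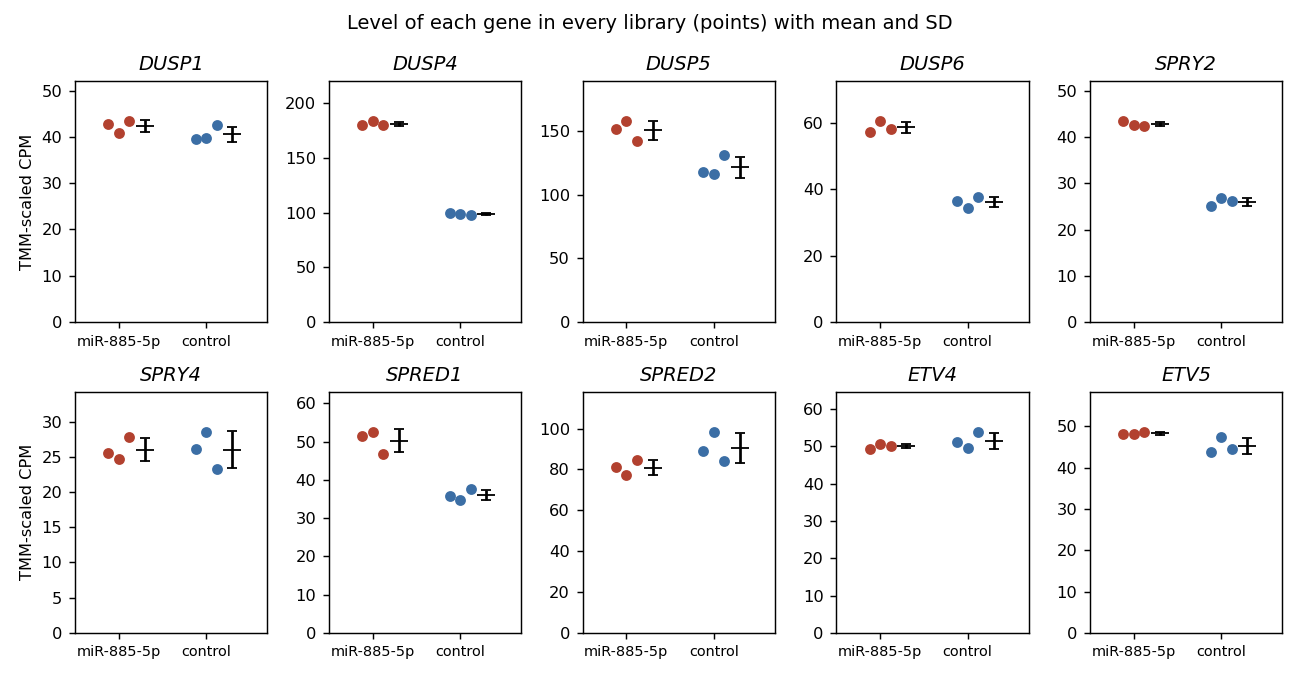
TMM-scaled CPM (vertical axes, from 0) of each gene in the 3 miR-885-5p libraries (red, left) and the 3 control libraries (blue, right), with the mean and SD in black. DUSP4, DUSP5, DUSP6, SPRY2, SPRED1 and, by a small gap, ETV5 are higher in every miR-885-5p library, while the points of DUSP1, SPRY4, SPRED2 and ETV4 overlap.

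Of the Sprouty genes, SPRY2 rose and SPRY4 did not pass the test. SPRY2, which blocks receptor signalling upstream of RAS, had 43.5, 42.7 and 42.5 CPM with miR-885-5p, against 25.05, 26.8 and 26.2 CPM in control libraries. The groups were well separated, at 42.9 ± 0.505 CPM with miR-885-5p and 26.0 ± 0.888 CPM in control cells (log2 fold change 0.72, SE 0.05, edgeR adjusted p = 3.46e-06). SPRY4, a paralog that also restrains RAS activation, had 25.6, 24.6 and 27.8 CPM with miR-885-5p, against 26.1, 28.5 and 23.3 CPM in control libraries. Its groups overlapped fully, with a log2 fold change of 0.0018 (SE 0.08, edgeR adjusted p = 0.988), and its sign turned without miR-885-5p library 3 (-0.046) or control library 3 (-0.071), in neither case past the test.

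SPRED1 rose, and SPRED2 had a small difference in the other direction. SPRED1, whose protein brings neurofibromin to RAS, had 51.5, 52.5 and 46.8 CPM with miR-885-5p, against 35.9, 34.7 and 37.5 CPM in control libraries. All miR-885-5p libraries were above all control libraries (log2 fold change 0.48, SE 0.06, edgeR adjusted p = 1.15e-04). SPRED2, its paralog, had 81.0, 77.3 and 84.4 CPM with miR-885-5p, against 89.2, 98.3 and 84.0 CPM in control libraries. The ranges overlapped, since control library 3 lay below miR-885-5p library 3. The log2 fold change of SPRED2 was -0.16 (SE 0.06) and its adjusted p in edgeR of 0.0464 lay close to the threshold. The call ended under 11 of 18 alternatives, among them the replicate block (adjusted p = 0.0943), total-count scaling (0.120) and leaving out miR-885-5p library 1 or 2 or control library 1 or 2, where adjusted p was 0.107, 0.157, 0.0872 and 0.137; without control library 3 it was 0.00660. The authors' deposited table gives SPRED2 a log2 fold change of -0.16 and p = 0.0130, by a test not named. Its header does not call that value adjusted, and the unadjusted p of edgeR was 0.0242.

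Neither ETS factor passed the test. ETV4 had 49.4, 50.5 and 50.1 CPM with miR-885-5p, against 51.1, 49.6 and 53.9 CPM in control libraries. These overlapped, and the log2 fold change of -0.04 (SE 0.05, edgeR adjusted p = 0.487) changed sign with total-count scaling (0.0049) and on the FPKM scale. ETV5 had 48.0, 48.3 and 48.7 CPM with miR-885-5p, against 43.8, 47.5 and 44.5 CPM in control libraries. All 3 miR-885-5p libraries lay above the control libraries, but the gap to control library 2 was small, and the log2 fold change of 0.09 (SE 0.05) had an edgeR adjusted p of 0.137. With total-count scaling ETV5 passed the threshold (log2 fold change 0.14, adjusted p = 0.0312), and also with limma on the log2(FPKM + 1) scale (0.15, adjusted p = 0.0354) or the log2(FPKM + 0.1) scale (0.17, adjusted p = 0.0346).

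**Figure D2:**
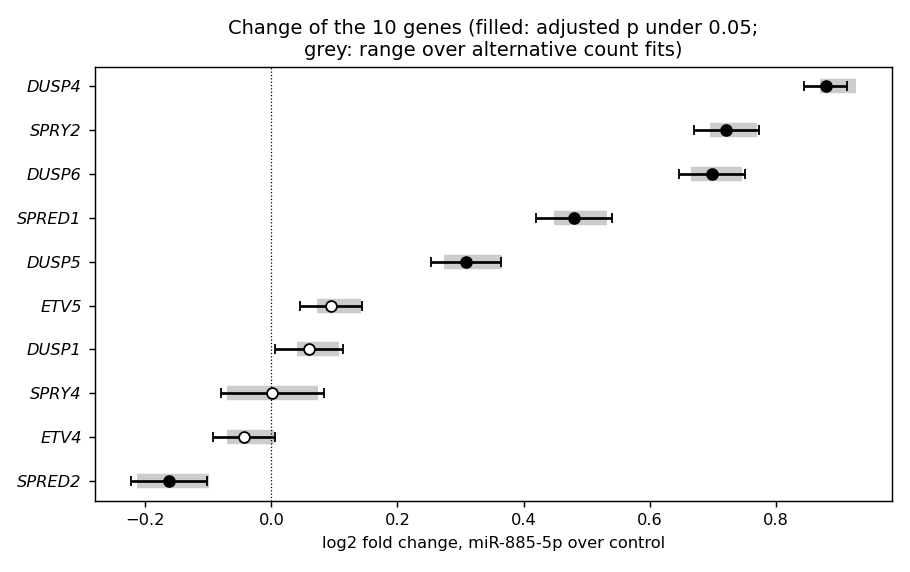
Log2 fold change of miR-885-5p over control (horizontal axis) for each gene from the edgeR fit, with bars of 1 SE; filled points have an adjusted p under 0.05, and grey bands span the 16 alternatives fitted on counts. DUSP4, SPRY2, DUSP6, SPRED1 and DUSP5 lie to the right of 0 with their bands. So do DUSP1 and ETV5, which have open points, while the bands of SPRY4 and ETV4 cross 0.

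Levels were compared between genes per length, by the FPKM that the authors deposited. DUSP5 had the highest level in both groups, 55.3 ± 3.48 FPKM with miR-885-5p and 42.8 ± 3.41 FPKM in control cells. DUSP4 took the second position with miR-885-5p, at 30.8 ± 0.750 FPKM, and the fifth in control cells, at 16.0 ± 0.168 FPKM. With miR-885-5p, ETV4 (22.1 ± 1.28 FPKM), SPRED2 (20.1 ± 0.568), DUSP1 (19.6 ± 0.359) and SPRY2 (18.7 ± 0.334) came next, and the libraries of SPRED2 and DUSP1 overlapped. DUSP6 (12.8 ± 0.460 FPKM), ETV5 (11.5 ± 0.234), SPRED1 (6.06 ± 0.434) and SPRY4 (5.31 ± 0.126) closed the order with miR-885-5p. In control cells the order after DUSP5 was ETV4 (21.9 ± 1.39 FPKM), SPRED2 (21.0 ± 1.10), DUSP1 (18.1 ± 0.956), DUSP4, SPRY2 (10.9 ± 0.351), ETV5 (10.2 ± 0.350), DUSP6 (7.63 ± 0.308), SPRY4 (5.28 ± 0.589) and SPRED1 (4.17 ± 0.219). In that order ETV4 and SPRED2 overlapped, as did SPRY2 and ETV5.

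The makeup of the phosphatase transcripts differed between the groups. The summed level of DUSP1, DUSP4, DUSP5 and DUSP6 was 117, 123 and 115 FPKM in miR-885-5p libraries and 82.6, 81.2 and 90.0 FPKM in control libraries. DUSP4 made up 26.0 ± 0.336% of that sum with miR-885-5p and 19.0 ± 0.956% in control cells, and DUSP6 made up 10.8 ± 0.385% with miR-885-5p and 9.03 ± 0.139% in control cells. DUSP5 made up 46.6 ± 1.42% with miR-885-5p and 50.6 ± 1.16% in control cells, and DUSP1 16.6 ± 0.856% with miR-885-5p and 21.4 ± 0.136% in control cells. DUSP4 and DUSP6 thus took larger shares and DUSP1 and DUSP5 smaller ones, with no overlap between libraries.

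Ratios of FPKM within a library carry no scaling between libraries. The ratio of SPRY2 to SPRY4 was 3.57, 3.65 and 3.37 with miR-885-5p, against 2.02, 1.88 and 2.34 in control libraries. The ratio of SPRED1 to SPRED2 was 0.314, 0.324 and 0.270 with miR-885-5p, against 0.202, 0.179 and 0.218 in control libraries. Both pairs were thus shifted towards the member that rose, in every library. DUSP6 to DUSP1 stood at 0.622, 0.683 and 0.644 with miR-885-5p, against 0.426, 0.424 and 0.416 in control libraries. DUSP4 to DUSP5 and DUSP4 to DUSP6 also did not overlap, with differences in log2 ratio of 0.57 and 0.20. An exact two-sided permutation test gave p = 0.10 for each of these 5 ratios, the smallest that 3 against 3 libraries can give (adjusted over 6 ratios, p = 0.12). The pairs were chosen after their values were seen. These p-values therefore add no separate support to the changes of the single genes given above. The ratio of ETV5 to ETV4 overlapped between groups (log2 difference 0.16, exact permutation p = 0.20, adjusted p = 0.20).

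**Figure D3:**
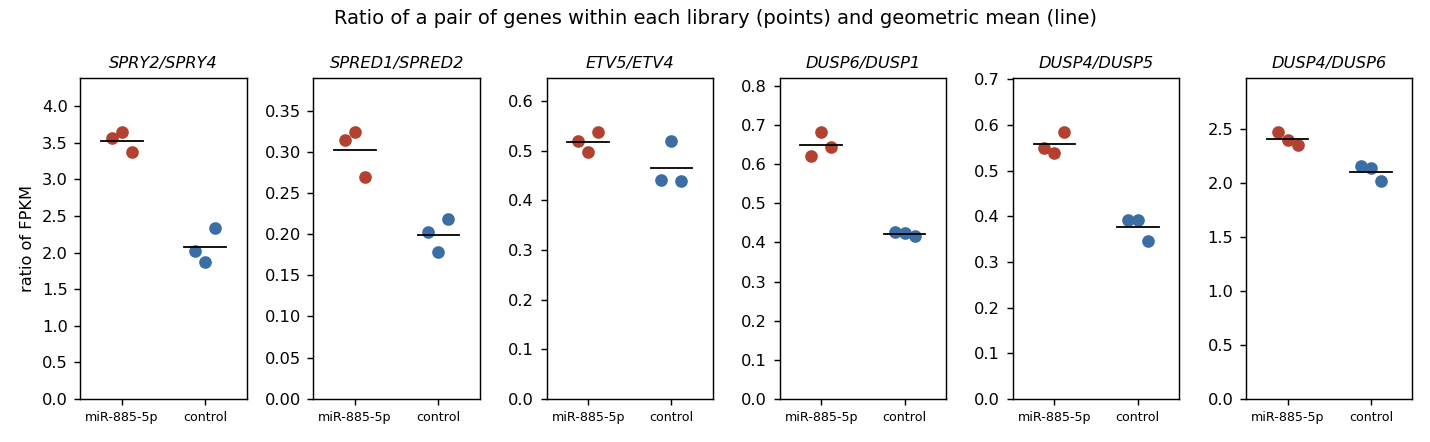
Ratio of FPKM between a pair of genes within each library (vertical axes, from 0), with the 3 miR-885-5p libraries in red on the left, the 3 control libraries in blue on the right and the geometric mean as a line. All ratios but ETV5/ETV4 are higher in every miR-885-5p library.

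Positions are those of GENCODE 29 on GRCh38. DUSP1 (ENSG00000120129) spans 172768090 to 172771195 of chromosome 5, minus strand, and SPRY4 (ENSG00000187678) spans 142310427 to 142326455 of the same chromosome and strand. DUSP5 (ENSG00000138166) lies on chromosome 10 from 110497838 to 110511544, and DUSP6 (ENSG00000139318) on chromosome 12 from 89347232 to 89353271. SPRY2 (ENSG00000136158) lies on chromosome 13 from 80335976 to 80340951, SPRED1 (ENSG00000166068) on chromosome 15 from 38252326 to 38357249, and SPRED2 (ENSG00000198369) on chromosome 2 from 65310851 to 65432637. ETV4 (ENSG00000175832) lies on chromosome 17 from 43527844 to 43579620, where 1.89% of its exonic bases lie in exons of DHX8 on the other strand, and ETV5 (ENSG00000244405) on chromosome 3 from 186046308 to 186110318.

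Promoters were looked at because members that rose and members that did not share family and function. RefSeq windows of 250 bases before to 50 after a start site matched 6 of the 10 genes, with 9 windows. DUSP4, DUSP5, ETV4 and ETV5 had no window, and SPRY2 and SPRED2 had more than 1. On both strands, the ETS core CCGGAA was found in 1 of 6 genes (SPRY2), the cAMP response element TGACGTCA in 1 (DUSP1), the AP-1 motif TGANTCA in 1 (SPRED2) and the CArG box in 0. The ETS core lay in only 1 of the SPRY2 windows, and the AP-1 motif in only 1 of the SPRED2 windows. The shares of tested genes with a window that hold these motifs were 35.1%, 3.75%, 7.19% and 1.57%, out of 9882. The half-site TGACG, which lies within the full cAMP response element, was found in 4 of 6 genes (DUSP1, SPRY2, SPRY4 and SPRED2), against 40.4% of the same genes. The 2 windows below, 30 bases each with the motif in capitals, come from a gene that rose (SPRY2, motif at -142 from 1 of its start sites) and from a gene that did not pass the test (DUSP1, at -125).
SPRY2 ETS core, chr13:80341250-80341279, minus strand: ccctgcctcctCCGGAAaggcgagggcgca
DUSP1 cAMP response element, chr5:172771302-172771331, minus strand: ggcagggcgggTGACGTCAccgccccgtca
The windows of DUSP6 and SPRED1, which also rose, held none of these motifs. These matches describe the letters in the windows only.

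The levels upstream in the pathway were set beside the feedback genes. The counts of each list stand against 52.9% of all genes called (26.3% higher and 26.5% lower) and a median log2 fold change of -0.00061. Of 14 listed growth factor ligands 9 were tested, and 7 of these fell, none rose and EGF and FGF1 did not pass the test (median log2 fold change -0.49). The call of BTC, an EGF receptor ligand, ended without miR-885-5p library 3 or control library 1 and on either FPKM scale. NRG1, a ligand of ERBB3 and ERBB4, fell to 58.4 ± 1.45 CPM with miR-885-5p, against 138 ± 2.80 CPM in control cells (log2 fold change -1.24, SE 0.04). The EGF receptor ligands TGFA and EREG fell by 0.83 and 0.49 on the log2 scale. Of 13 receptors 12 were tested, with 2 higher and 3 lower (median -0.04): FGFR1, FGFR3 and MET changed by -0.82, -0.95 and -0.16, PDGFRB by 1.03 and FGFR4 by 0.13. FGFR4 was no longer called without miR-885-5p library 2 or control library 1, and MET was not called on the FPKM scale. EGFR had 396 CPM with miR-885-5p and 403 CPM in control cells on average and did not pass the test (adjusted p in edgeR 0.659).

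Genes of the RAS-ERK cascade itself went both ways. Of 21 listed genes 20 were tested, with 6 higher, 7 lower and 7 not past the test (median log2 fold change 0.01); on either FPKM scale 8 were higher and 4 lower. The adaptor gene SHC1 rose by 0.51, the kinase gene BRAF by 0.60 and SHOC2, a scaffold that helps activate RAF, by 0.34, whereas HRAS fell by 0.62, NRAS by 0.37 and the adaptor gene GRB2 by 0.30 on the log2 scale.

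Relatives of the feedback genes were mixed as well. Of 12 other DUSP, Sprouty and SPRED genes 9 were tested, with 2 higher, 2 lower and 5 not past the test (median 0.14). DUSP10, a phosphatase of p38 and JNK, rose to 86.9 ± 1.56 CPM with miR-885-5p, against 50.5 ± 3.56 CPM in control cells (log2 fold change 0.78). DUSP22 rose by 0.57 and DUSP14 fell by 0.79. DUSP3 had a value of -0.11 and kept its call in 9 of 18 alternatives. The call ended without miR-885-5p library 1 or 2 or control library 1 or 2. It also ended with total-count scaling, the replicate block, the 1.2-fold test and either FPKM scale. Of 14 other inhibitors of the pathway 8 rose and 1 fell (median 0.12), against 26.3% of all genes called higher and 26.5% lower. The ubiquitin ligase gene CBLB rose by 1.02, LRIG3 by 0.64 and LZTR1, which directs RAS to degradation, by 0.21. PEA15, which holds ERK in the cytoplasm, fell by 0.52. The count that rose was 6 without miR-885-5p library 1, miR-885-5p library 2 or control library 3, and 2 in the test against a 1.2-fold change. RASAL2 (log2 fold change 0.11) kept its call in 8 of 18 alternatives and ERRFI1 (0.12) in 13, while CBLB, LRIG3 and PEA15 were called in all 18.

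Other genes that ERK induces did not move as a group. Of 14 genes 5 rose, 7 fell and PHLDA1 and MCL1 did not pass the test (median -0.08). ETV1, the third gene of the PEA3 group, rose to 88.0 ± 1.31 CPM with miR-885-5p, against 52.2 ± 2.14 CPM in control cells (log2 fold change 0.75, SE 0.05). ETV4 and ETV5 did not pass the test, and the difference between them and ETV1 was not tested. The ephrin receptor genes EPHA4 and EPHA2 had log2 fold changes of 0.89 and -0.37, and the immediate early genes IER2 and IER3 of 0.40 and -0.28. PLAUR, the urokinase receptor gene, had 0.451 ± 0.0268 CPM with miR-885-5p and 1.34 ± 0.307 CPM in control cells (log2 fold change -1.57). The count of genes that fell was 3 on either FPKM scale, where IER3, CCND1, FOSL1 and LIF were not called, and 2 in the test against a 1.2-fold change. LIF (log2 fold change -0.10, edgeR adjusted p = 0.0472) kept its call in 3 of 18 alternatives, and DESeq2 and limma-voom did not call it. The calls of EPHA4, EPHA2, IER2 and ETV1 held in all 18.

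**Figure D4:**
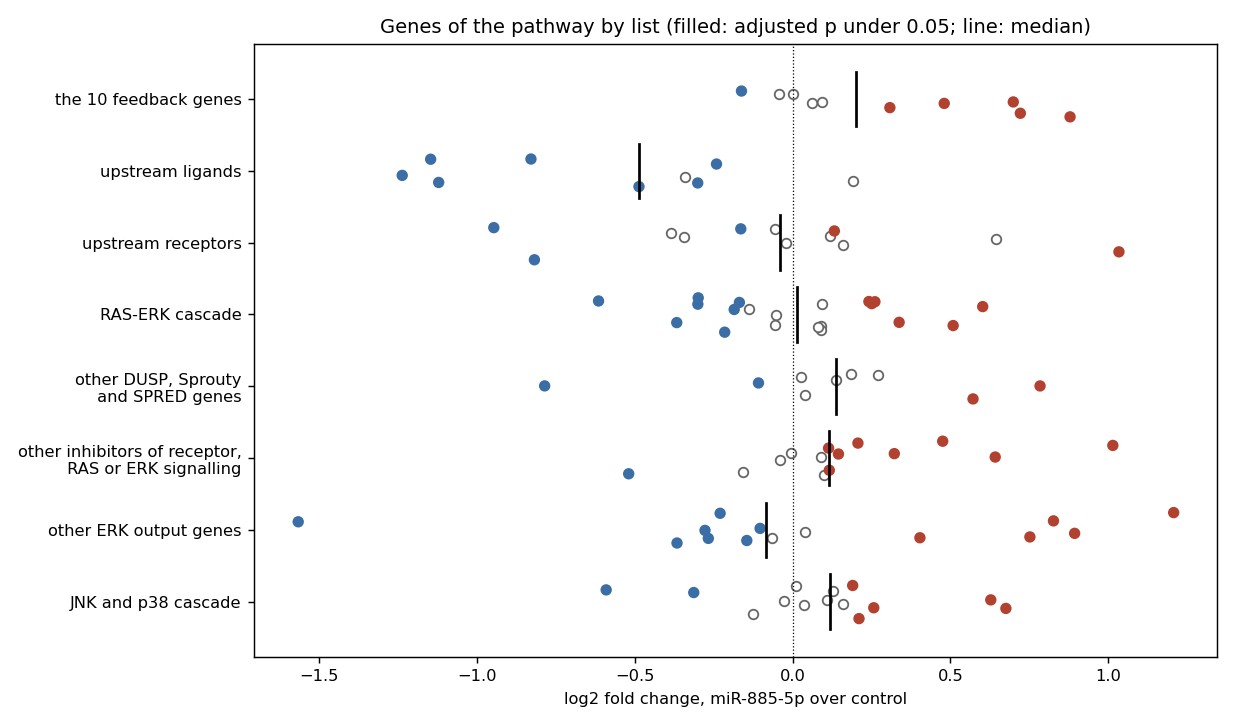
Log2 fold change of miR-885-5p over control (horizontal axis) for each tested gene of the pathway lists (rows); filled points have an adjusted p under 0.05 (red higher, blue lower), open points do not, and the line is the median. The ligand list lies left of 0 except for EGF, and the cascade and output lists spread to both sides.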

How the data were processed

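Messenger RNA was sequenced from the human hepatocellular carcinoma line JHH-4, in 3 libraries with miR-885-5p overexpressed and 3 control libraries, grouped by sample title. Raw read counts of each gene were deposited, per the file headers. FPKM values (fragments scaled by transcript length and library total) were deposited beside them, per the file headers, and served here to compare levels across genes. For each gene the authors deposited their own p-value, whose test the headers do not name. They also deposited a log2 fold change. The submitters' processing notes list GRCh38 and the tools StringTie 2.2.1, HISAT2 2.0.4 and DESeq2 1.38.3, without roles. No source used here names the counter, the annotation release or the strand setting. The smallest row sum over 6 libraries was 194 counts, so rows with low counts had been removed from the table of 14034 rows by a rule not stated.

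The main test was the quasi-likelihood test of edgeR 4.0.16, run in R 4.3.3 after TMM scaling and the filterByExpr filter (0 rows removed), with Benjamini-Hochberg adjustment over all 14034 rows and a threshold of 0.05. The SE is the log2 fold change divided by the root of the F statistic. The fits were also run on simulated counts. There a far smaller share of genes differed than was called here, so that run does not gauge the calls above. The alternatives were DESeq2 1.42.0, limma-voom (limma 3.58.1), 3 other scalings, 2 other filters, named genes alone, a test against a 1.2-fold change, a block for the replicate number, limma on log2 FPKM with a pseudocount of 1 or 0.1, and leaving out each library. Seed sites were searched in GENCODE 29 transcripts and motifs in RefSeq promoters (GRCh38.p14). The 10 genes and the pathway lists were chosen with earlier results of these data known. The text names all 10 genes, in each pathway list up to 3 genes per direction with the smallest adjusted p, and the 3 genes most like DUSP6. One gene of the cascade list is not reported here by name. The pairs set against each other as ratios were chosen after their values were seen.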

Additional observations from a re-analysis of the deposited data

How the results depend on the processing

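The calls of DUSP4, DUSP6, SPRY2 and SPRED1 and the absence of a call for DUSP1, SPRY4 and ETV4 held in all 18 alternatives. The count of genes lower among the 10 dropped to 0 under upper-quartile scaling, total-count scaling, the filter at 5 CPM, the 1.2-fold test and limma on FPKM with either pseudocount, and ran from 0 to 1 when 1 library was left out. ETV4 had a log2 fold change of 0.0049 with total counts and of 0.011 on either FPKM scale, and SPRY4 of -0.046 and -0.071 without miR-885-5p library 3 and control library 3 (-0.071 to 0.075 over the libraries left out); the cause was not tested. The test against a 1.2-fold change, which asks for larger differences by construction, called 3297 genes, 1665 higher and 1632 lower, and 3 receptors, 4 cascade genes, 3 other inhibitors, 7 ERK output genes and 3 JNK and p38 genes. With the replicate number as a block the count lower among the 10 was 0, and the calls of the other 9 genes did not change. Same-numbered libraries had deviations correlated at -0.18, -0.058 and -0.15, and no library correlated best with its own number. Deviations from the mean of only 3 libraries are tied to each other, so these values cannot show that the libraries were unpaired. The 1.2-fold test also ended the call of DUSP5. Total counts moved the median of all genes to 0.05 on the log2 scale. At this depth each of the 10 genes had at least 1148 counts in every library, and 3 technical replicates per group limit what the p-values cover.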

Other observations

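DUSP1, DUSP4 and DUSP10 also act on the stress kinases JNK and p38, and genes of that cascade were measured too. Of 14 tested genes 5 rose and 2 fell (median log2 fold change 0.12), against 26.3% of all genes called higher and 26.5% lower. With 52.9% of all genes called in either direction, the number of calls in this list is near the background. MAP2K6, which activates p38, rose to 40.0 ± 2.67 CPM with miR-885-5p, against 25.9 ± 0.927 CPM in control cells, while MAP2K3, the other main p38 activator, fell to 77.7 CPM with miR-885-5p, against 117 CPM in control cells (log2 fold changes 0.63 and -0.59, SE 0.06 and 0.04). MAPK13, a p38 isoform gene, rose by 0.68 and MAPKAPK2, a kinase downstream of p38, by 0.26, and MAP3K5 fell by 0.31.

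By log2 CPM over the 6 libraries, the genes most like DUSP6 were MAP3K12, GPR37 and DBNL. MAP3K12, a kinase upstream of JNK, had 70.7 ± 2.26 CPM with miR-885-5p and 41.8 ± 2.19 CPM in control cells. GPR37, an orphan receptor gene, had 14.5 ± 0.521 and 4.56 ± 0.490 CPM in miR-885-5p and control cells, and DBNL, an actin-binding adaptor gene, 252 ± 1.17 CPM with miR-885-5p and 236 ± 1.57 CPM in control cells. The likeness mostly carries the difference between the groups, since 11.1% of all genes had a Pearson coefficient above 0.95 with DUSP6, given as a description.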
